A study of Homo sapiens with 6 samples.

Results

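Activins, inhibins and follistatins form a signalling system that was first described in the ovary, and its 10 genes INHA, INHBA, INHBB, FST, FSTL1, FSTL3, ACVR1, ACVR1B, ACVR2A and ACVR2B were followed here in KGN cells with and without added SOX3. They were chosen by symbol as members of the system, with earlier results of these data known, and all 10 were among the 16626 genes of the deposited table. KGN cells are a human line of granulosa character, established from a granulosa cell tumour of the ovary. The 3 OE-NC libraries carry the genotype label WT and the 3 OE-SOX3 libraries are labelled as overexpressing SOX3, a SOX family transcription factor. The labels give neither the vector nor the culture conditions, nor whether a line is a clone, nor whether replicates were grown separately. A p-value here thus sets the group difference against the scatter of these libraries within their groups, and that scatter may be technical.

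In granulosa cells, activins are dimers of inhibin beta subunits, and inhibins pair the alpha subunit, encoded by INHA, with a beta subunit encoded by INHBA or INHBB. Activins bind the type II receptors ACVR2A or ACVR2B, which recruit a type I receptor, chiefly ACVR1B, and so activate SMAD2 and SMAD3. Inhibins compete for the type II receptors with the help of the co-receptor betaglycan, and follistatin (FST) and the follistatin-like protein FSTL3 bind activins and keep them from their receptors.

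The 250 bases before the RefSeq start (GRCh38.p14) are shown for INHA, INHBA and FST, 3 secreted-factor genes that were higher in OE-SOX3, and for INHBB, the beta subunit gene that stayed at the floor in both groups. Each is written 5′ to 3′ on the strand of the gene. The GENCODE gene positions given below start elsewhere. By them the INHA and INHBA windows lie inside the gene, the FST window mostly does, and the INHBB window lies before it. Capitals mark AGATA, the core of a GATA factor site, and TGCGTCA, a cAMP response element variant, in INHA. In INHBA they mark the cAMP response element variant TGATGTCA, the CCAAT box, the SOX core ACAAAG and TATAAA. In FST they mark AGATA directly followed by ATTGG, which is CCAAT on the other strand.
INHA promoter, chr2:219572060-219572309, plus strand: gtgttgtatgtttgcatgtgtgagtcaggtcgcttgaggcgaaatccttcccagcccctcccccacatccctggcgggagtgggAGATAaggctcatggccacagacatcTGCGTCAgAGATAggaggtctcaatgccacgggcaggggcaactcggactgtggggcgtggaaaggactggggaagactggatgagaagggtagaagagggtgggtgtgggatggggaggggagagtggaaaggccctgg
INHBA promoter, chr7:41703091-41703340, minus strand: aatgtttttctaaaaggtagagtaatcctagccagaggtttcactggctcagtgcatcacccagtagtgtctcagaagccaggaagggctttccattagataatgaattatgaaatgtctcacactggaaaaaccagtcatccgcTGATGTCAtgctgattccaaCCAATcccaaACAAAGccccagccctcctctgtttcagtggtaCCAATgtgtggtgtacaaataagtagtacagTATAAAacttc
FST promoter, chr5:53480379-53480628, plus strand: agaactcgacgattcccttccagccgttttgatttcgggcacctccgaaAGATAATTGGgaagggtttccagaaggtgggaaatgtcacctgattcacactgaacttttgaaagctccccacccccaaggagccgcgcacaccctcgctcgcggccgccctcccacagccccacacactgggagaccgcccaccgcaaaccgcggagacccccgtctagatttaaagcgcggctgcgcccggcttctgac
INHBB promoter, chr2:120345886-120346135, plus strand: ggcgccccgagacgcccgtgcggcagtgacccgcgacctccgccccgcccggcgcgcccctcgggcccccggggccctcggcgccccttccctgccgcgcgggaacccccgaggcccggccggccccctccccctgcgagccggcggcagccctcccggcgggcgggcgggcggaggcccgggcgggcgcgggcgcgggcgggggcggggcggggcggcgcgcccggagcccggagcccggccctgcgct

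The promoters of the subunit genes differed in base composition. INHBA had 42.8% G and C and 1 CG dinucleotide, whereas INHBB had 89.6% and 46 CG dinucleotides. INHA had 59.6% and FST 60.0%, close to the median of 58.0% over 35116 RefSeq promoter windows of the same length. The letters ACAAAG stand 75 to 70 bases before the start of INHBA, and 13.7% of all windows hold them on either strand. ACVR2B also had them, on the other strand, 30 to 25 bases before its start, as did 1 of the 2 ACVR1B windows. TGATGTCA, found in INHBA 105 to 98 bases before the start, was held by 2.37% of windows, and TGCGTCA, found in INHA at 140 to 134, by 2.09%. TGCGTCA was searched as the element of the inhibin alpha gene, so its match in INHA was fixed by the choice of letters. The TGCGTCA letters of INHA overlap a match to the shorter element TGACG on the other strand (21.2% of windows). AGATA occurred in 22.0% of windows and, among the 10 genes, in INHA, INHBA, FST, ACVR1 and ACVR1B. INHBA has an AGATA that is not marked above. CCAAT (32.0% of windows) was found in INHBA, FST and ACVR1, TATAAA (10.7%) in INHBA and FSTL3, and the second SOX core searched, ACAAT (24.6%), in ACVR1. None of the 8 motifs searched was found in this window of INHBB, FSTL1 or ACVR2A. A match is a description of the letters, not evidence of binding.

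Expression is given as FPKM, reads scaled to gene length and library total, from libraries of 18039929 to 20335307 reads. The library totals and each gene's reads were recovered from the steps of the FPKM values. SOX3 itself, the check of the labels, was at 0.0756, 0.142 and 0.0254 FPKM in the OE-NC libraries and at 14.3, 13.7 and 14.4 FPKM in the OE-SOX3 libraries. OE-NC replicate 1 stood apart. Over tested genes it correlated at 0.986 with either of the other OE-NC libraries, which correlated at 0.998 with each other, and its deviation from the mean of its group ran with gene length (Spearman rho -0.508, taken over genes, which are not independent of each other). The tested values of the 10 genes are therefore given with and without it. Of 10 granulosa markers, 5 passed the filter on low values. The steroidogenic factor gene NR5A1 (15.7 and 15.4 FPKM in OE-NC and OE-SOX3), AMH (4.65 and 5.38 FPKM) and the ovarian transcription factor gene FOXL2 (3.23 and 4.85 FPKM) were present, while the aromatase gene CYP19A1 (0.273 and 0.925 FPKM) and AMHR2 (0.245 and 0 FPKM) were low or at 0. In such bulk RNA, fewer cells expressing a gene and less RNA per cell cannot be told apart.

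The genes of the system spanned more than 3 orders of magnitude. In OE-NC the order of mean FPKM was FSTL1 (286), FSTL3 (69.1), ACVR1 (12.3), ACVR1B (3.60), ACVR2A (1.14), ACVR2B (0.526), INHBA (0.488), FST (0.356), INHA (0.215) and INHBB (0.0952). The ranges of ACVR2B, INHBA, FST and INHA overlapped from each gene to the next, so neighbours in this order are not resolved, while ACVR2B lay above FST and INHA, and INHBA above INHA, in every OE-NC library. In OE-SOX3 INHBA stood at 6.00 FPKM, above ACVR1B (3.32) and below ACVR1 (13.4), with no overlap on either side. ACVR2A (1.80), INHA (1.38), FST (1.19) and ACVR2B (1.12) followed with ranges that overlapped from each to the next, and INHBB (0.0732) was again last. FSTL1 was among the most abundant transcripts of the cells, above 99.0% of listed genes in OE-NC and 99.3% in OE-SOX3.

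**Figure D1:**
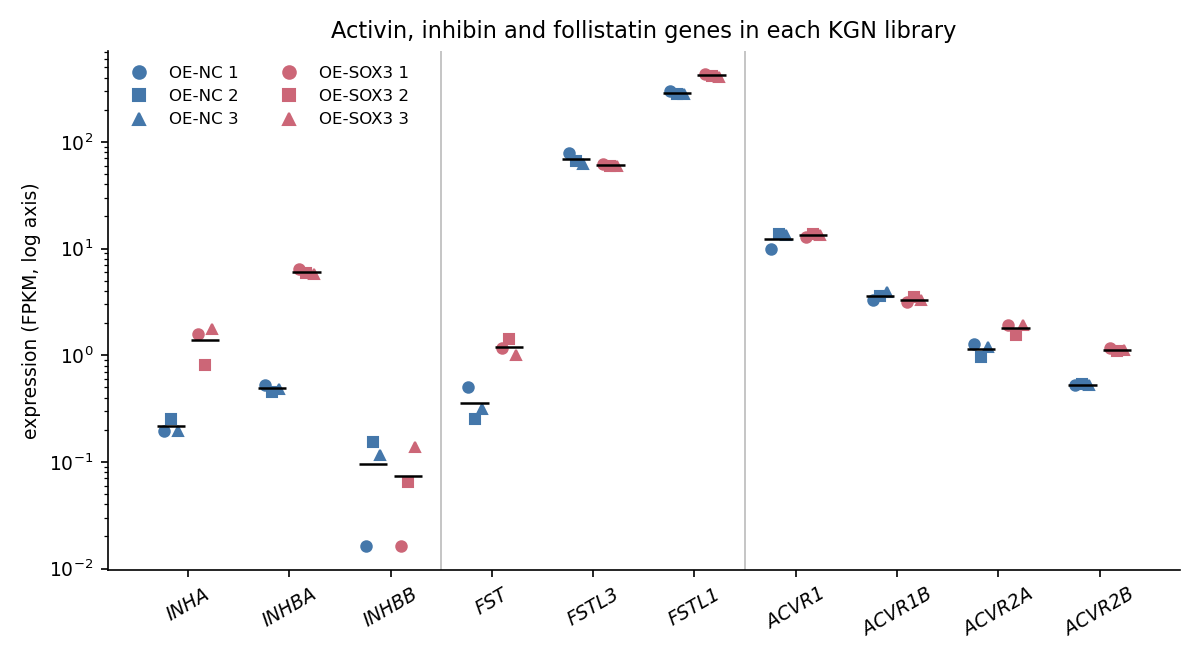
FPKM (log axis) of the 10 genes in each library, with subunits on the left, follistatins in the middle and receptors on the right; blue is OE-NC, red is OE-SOX3, symbols are replicates and bars are group means (n = 3). INHBA separates most, from 0.455 to 0.525 FPKM in OE-NC to 5.78 to 6.38 FPKM in OE-SOX3, and INHBB overlaps throughout.

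Of the 10 genes, 9 passed the filter on low values (a group mean of at least 1 FPKM) and were tested, of which 6 rose at a limma adjusted p under 0.05, 0 fell and 3 did not pass. Over all 11131 tested genes 69.1% passed, with 32.9% higher and 36.1% lower, and the groups did not overlap in 76.0% (for the 9 genes, in 6). Of the 9, 4 (INHBA, INHA, FST and ACVR2B) passed the filter only through their OE-SOX3 level. The count, the median log2 difference of 0.48 (against -0.03 over all tested genes) and the filtered adjusted p of these 4 are therefore given as a description. With no filter on low values all 10 were tested and 6 rose, the same 6 genes, where 54.9% of 16278 genes passed, 28.5% higher and 26.4% lower, and INHBB did not pass (limma adjusted p = 0.71, log2 difference -0.03). Without OE-NC replicate 1, 6 of the 9 again rose and 0 fell, where 81.5% of all tested genes passed, 38.4% higher and 43.1% lower.

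**Figure D2:**
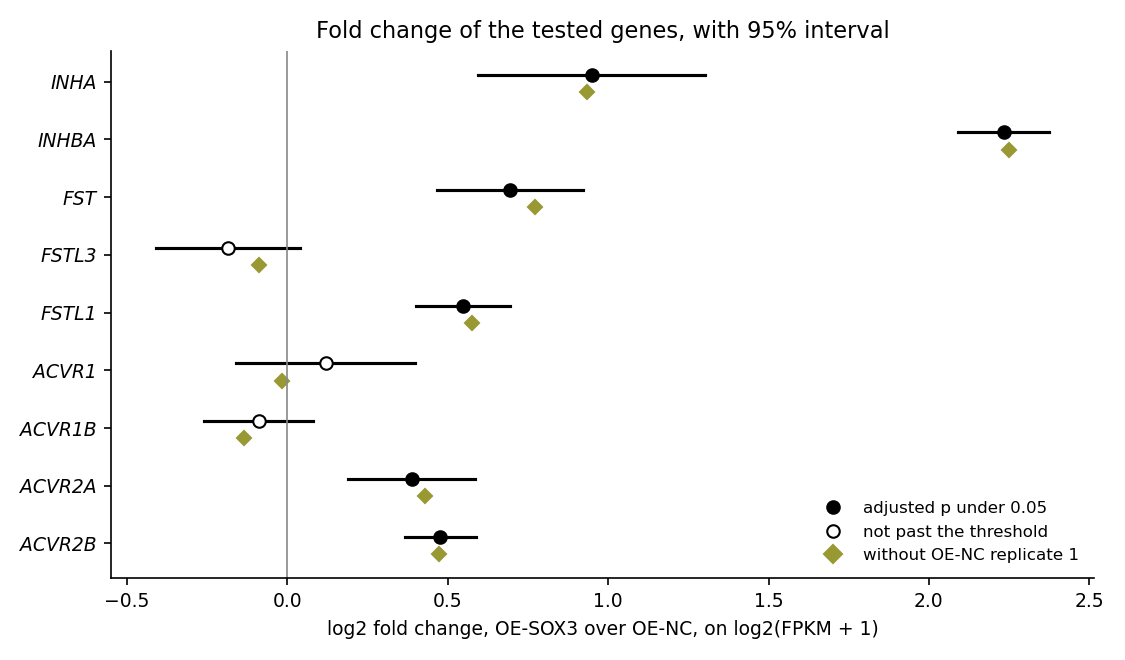
Log2 fold change of the 9 tested genes with its 95% interval (circles, n = 3 per group) and the value without OE-NC replicate 1 (diamonds). INHBA lies at 2.23, the other called genes lie between 0.39 and 0.95, and the intervals of FSTL3, ACVR1 and ACVR1B include 0.

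INHBA, which encodes the beta A subunit of activin A and inhibin A (chromosome 7, 41667168 to 41705834, minus strand, GRCh38), had the largest change of the system. Its level was 0.525, 0.455 and 0.484 FPKM in OE-NC and 6.38, 5.83 and 5.78 FPKM in OE-SOX3. All 3 OE-SOX3 libraries were more than 10 times above every OE-NC library. The means were 0.488 ± 0.0352 and 6.00 ± 0.333 FPKM (SD, n = 3 per group), a ratio of 12.3. The reads behind it numbered 230 in OE-NC and 2754 in OE-SOX3, and per unit depth they gave a ratio of 12.3 between the groups (95% exact binomial interval 10.8 to 14.2, counting error only). On the log2(FPKM + 1) scale, which understates the change of low genes, the difference was 2.23 (SE 0.06, limma adjusted p = 9.1e-07, and 5.51e-06 with no filter) and 2.25 without OE-NC replicate 1.

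INHA, which encodes the alpha subunit that makes a beta subunit into inhibin (chromosome 2, 219569162 to 219575713, plus strand), rose from a level near the floor. It was at 0.194, 0.255 and 0.196 FPKM in OE-NC and at 1.57, 0.812 and 1.76 FPKM in OE-SOX3. The groups did not overlap, and OE-SOX3 replicate 2 was lower than the other OE-SOX3 libraries. These values rest on 5, 7 and 5 reads in OE-NC and 41, 21 and 43 reads in OE-SOX3. The mean ratio was 6.42, and the ratio of reads per unit depth was 6.36 with a wide interval (3.79 to 11.3, 95% exact binomial, counting error only). The log2 difference was 0.95 (SE 0.15, limma adjusted p = 0.00104, and 0.00235 with no filter), and 0.94 without OE-NC replicate 1.

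INHBB, which encodes the beta B subunit (chromosome 2, 120346143 to 120351808, plus strand), was below 0.2 FPKM in every library and did not pass the filter. OE-NC libraries held 1, 10 and 7 of its reads and OE-SOX3 libraries 1, 4 and 8. The ratio of reads per unit depth was 0.744 (95% exact binomial interval 0.335 to 1.61, counting error only), so a difference was not detectable at this depth. Of the beta subunit transcripts, INHBA was the more abundant in every library. The INHBA-to-INHBB ratio of FPKM was 32.0, 2.96 and 4.18 in OE-NC and 396, 89.5 and 41.8 in OE-SOX3. The highest ratio of each group belongs to the library with 1 INHBB read.

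The balance of beta A to alpha transcripts was compared within each library, where the library's scale cancels. The INHBA-to-INHA ratio of FPKM was 2.70, 1.78 and 2.47 in OE-NC and 4.07, 7.19 and 3.28 in OE-SOX3. It was above every OE-NC value in all 3 OE-SOX3 libraries, and OE-SOX3 replicate 2, with the fewest INHA reads of its group, held the highest. The mean log2 ratio was 1.19 ± 0.31 in OE-NC and 2.19 ± 0.58 in OE-SOX3 (SD, n = 3 per group), a difference of 1.01, and 1.13 without OE-NC replicate 1. Without OE-SOX3 replicate 2 the difference was 0.68. This ratio was described and not tested.

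FST encodes follistatin, the main activin-binding protein (chromosome 5, 53480409 to 53487134, plus strand). Its level was 0.506, 0.250 and 0.312 FPKM in OE-NC and 1.17, 1.41 and 0.994 FPKM in OE-SOX3, without overlap between the groups. OE-NC replicate 1 held the highest OE-NC value. Reads numbered 77 in OE-NC and 253 in OE-SOX3, which per unit depth is a ratio of 3.38 (95% exact binomial interval 2.61 to 4.43, counting error only). The log2 difference was 0.69 (SE 0.10, limma adjusted p = 0.000555, and 0.0011 with no filter). Without OE-NC replicate 1 it was 0.77, and the ratio of mean FPKM was 4.25 in place of 3.35.

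FSTL3, a secreted follistatin family member that also binds activin (chromosome 19, 676365 to 683399, plus strand), was far more abundant than FST. It stood at 78.8, 66.1 and 62.2 FPKM in OE-NC and at 62.6, 59.1 and 59.2 FPKM in OE-SOX3. The groups overlapped, since OE-SOX3 replicate 1 lay above OE-NC replicate 3. The difference did not pass the test (log2 difference -0.19, 95% interval -0.41 to 0.04, limma adjusted p = 0.118), and it was -0.09 without OE-NC replicate 1. FST and FSTL3 together summed to 69.4 ± 8.80 FPKM in OE-NC and 61.5 ± 2.00 FPKM in OE-SOX3 (SD, n = 3 per group). FST was thus a small part of this sum in either group, with FST-to-FSTL3 ratios of 0.00642, 0.00378 and 0.00501 in OE-NC and 0.0188, 0.0239 and 0.0168 in OE-SOX3. Each OE-SOX3 library was above each OE-NC library in this ratio. The sum of the beta subunits INHBA and INHBB was 0.583 ± 0.0364 FPKM in OE-NC and 6.07 ± 0.282 FPKM in OE-SOX3 (SD, n = 3 each) and remained below FSTL3 in every library.

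FSTL1 encodes a secreted glycoprotein with a follistatin-like domain (chromosome 3, 120392293 to 120451253, minus strand). Its level was 297, 284 and 278 FPKM in OE-NC and 429, 419 and 409 FPKM in OE-SOX3. The groups lay well apart, and the ratio of means was 1.46. The log2 difference was 0.55 (SE 0.06, limma adjusted p = 0.000208) and 0.57 without OE-NC replicate 1. Exons of other genes cover 4.33% of its exon bases, among them an opposite-strand pseudogene, and the strand setting of the counting is not given.

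**Figure D3:**
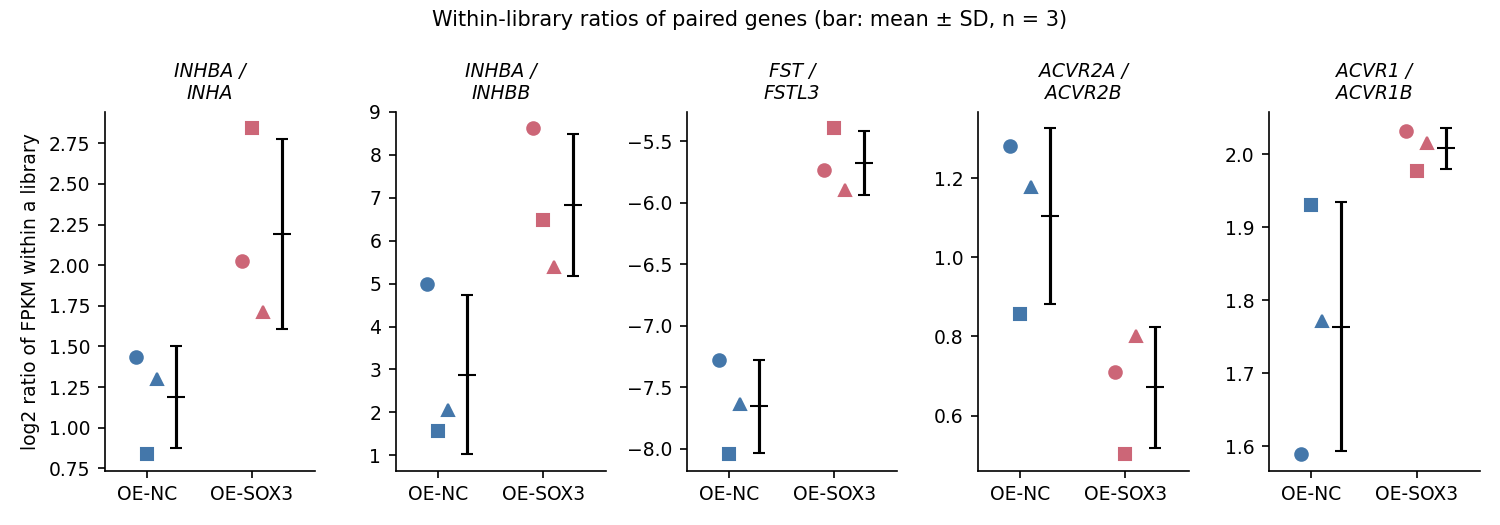
Log2 ratio of FPKM within each library for 5 gene pairs; blue is OE-NC, red is OE-SOX3, symbols are replicates, black bars are mean ± SD (n = 3), and each panel has its own axis. The groups do not overlap in any panel, and the mean difference runs from 3.96 for INHBA over INHBB to -0.43 for ACVR2A over ACVR2B. Trends with gene length do not cancel in these ratios.

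Both type II receptor genes rose. ACVR2B (chromosome 3, 38453851 to 38493142, plus strand) was at 0.520, 0.533 and 0.525 FPKM in OE-NC and at 1.17, 1.09 and 1.11 FPKM in OE-SOX3. Each group was narrow and the ratio of means was 2.14. The log2 difference was 0.48 (SE 0.05, limma adjusted p = 9.98e-05, and 6.1e-05 with no filter) and 0.47 without OE-NC replicate 1. The values imply a gene length of 18080 bases, the longest of the 10, and with each library's trend against gene length removed the difference was 0.20 and no longer passed, where 70.8% of all genes did (limma adjusted p = 0.0811, range over alternatives 1.9e-05 to 0.0811). Part of a trend between the groups is removed by that setting too, so a share due to length alone cannot be told apart.

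ACVR2A (chromosome 2, 147844517 to 147930826, plus strand) was at 1.26, 0.965 and 1.19 FPKM in OE-NC and at 1.91, 1.55 and 1.94 FPKM in OE-SOX3. The groups did not overlap, although OE-NC replicate 1 and OE-SOX3 replicate 2 came close. The log2 difference was 0.39 (SE 0.08, limma adjusted p = 0.0048) and 0.43 without OE-NC replicate 1. Under quantile normalization it was 0.22 and did not pass, where 69.3% of all genes did (limma adjusted p = 0.054, range over alternatives 0.000689 to 0.054). Opposite-strand exons, among them those of ORC4, cover 7.98% of its exon bases. The ACVR2A-to-ACVR2B ratio was 2.43, 1.81 and 2.26 in OE-NC and 1.64, 1.42 and 1.74 in OE-SOX3, lower in all 3 OE-SOX3 libraries. The genes differ in length (5404 and 18080 bases), and a trend with gene length does not cancel in a ratio. With length trends removed the log2 difference was 0.34 for ACVR2A and 0.20 for ACVR2B, against 0.39 and 0.48 as reported. The ratio was not recomputed in that setting, so its direction there is not known. Together the type II receptor genes summed to 1.66 ± 0.149 FPKM in OE-NC and 2.92 ± 0.247 FPKM in OE-SOX3 (SD, n = 3 per group).

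The type I receptor genes did not pass the test. ACVR1B, the main activin type I receptor (chromosome 12, 51951667 to 51997078, plus strand), was at 3.30, 3.60 and 3.90 FPKM in OE-NC and at 3.13, 3.51 and 3.32 FPKM in OE-SOX3. The groups overlapped, with a log2 difference of -0.09 (95% interval -0.26 to 0.08, limma adjusted p = 0.301), and -0.14 without OE-NC replicate 1, which did not pass either. ACVR1, which serves mainly bone morphogenetic protein ligands (chromosome 2, 157736444 to 157875862, minus strand), was at 9.94, 13.7 and 13.3 FPKM in OE-NC and at 12.8, 13.8 and 13.4 FPKM in OE-SOX3. OE-NC replicate 1 lay below the other 5 libraries. The log2 difference was 0.12 (95% interval -0.16 to 0.40, limma adjusted p = 0.393), and -0.02 without that library. The intervals exclude a change of ACVR1B or ACVR1 as large as that of INHBA.

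Genes that act with these members were counted by role. Among 10 other ligand genes, 2 were tested, of which INHBE, the beta E subunit gene, fell (1.82 ± 0.0139 to 0.165 ± 0.0627 FPKM, SD, n = 3 per group, limma adjusted p = 3.58e-06) and GDF11, which also signals through the type II receptors, did not pass (4.83 and 4.26 FPKM) but passed as lower without OE-NC replicate 1 (log2 difference -0.17) and under median-ratio scaling or quantile normalization. INHBE passed the filter on low values only through its OE-NC level, so its fall is given as a description. Its direction was opposite to that of INHBA. INHBC, the beta C subunit gene, was below 0.1 FPKM in each group's mean. Of 9 tested receptors and co-receptors outside the 10 genes, 5 rose, 2 fell and 2 missed the threshold (median log2 difference 0.21, against -0.03 over all tested genes, of which 69.1% passed). Of the 2, BMPR1A passed as lower without OE-NC replicate 1 (-0.20). TGFBR3, which encodes the inhibin co-receptor betaglycan, rose to 11.0 ± 0.687 from 5.90 ± 0.724 FPKM (SD, n = 3 in either group, limma adjusted p = 0.000236), and BMPR2, a type II receptor for bone morphogenetic proteins, rose from 6.27 to 10.9 FPKM. ENG, the endothelial co-receptor endoglin, fell from 50.4 to 27.1 FPKM, and FKBP1A, whose product binds unstimulated type I receptors, fell from 356 to 262 FPKM. ACVR1C, a further activin-type receptor, stood at 0.253 and 0.702 FPKM and was not tested.

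Of 10 genes listed as other antagonists or follistatin-domain proteins, 2 were tested and both rose. Among all tested genes 69.1% passed, 32.9% higher and 36.1% lower, and 2 genes are too few to set against these shares. SPOCK1, a matrix proteoglycan gene, went from 4.05 to 24.9 FPKM and FSTL5 from 13.9 to 17.3 FPKM. No action on activin is assumed for either. NOG, CHRD and GREM1, which encode bone morphogenetic protein antagonists, were below 1 FPKM in both groups. Of the proprotein convertase genes, whose products cut precursors of this family, PCSK7 fell (16.2 to 10.3 FPKM) and FURIN stood at 58.4 and 48.7 FPKM without passing, and passed as lower without OE-NC replicate 1 (log2 difference -0.37), with the replicate block (-0.25) and with length trends removed.

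Of 16 tested SMAD and cofactor genes, 9 rose, 2 fell and 5 stayed short of the threshold (median log2 difference 0.20). Over all tested genes 69.1% passed, 32.9% higher and 36.1% lower, so only the count of both directions together is near the background. Of the 5, SMURF1 passed as lower (-0.26) and ZFYVE9 as higher (0.15) without OE-NC replicate 1. SMAD9 passed the filter only through OE-SOX3. The activin-responsive SMAD genes differed among themselves. SMAD3 rose to 41.5 ± 1.03 from 24.7 ± 1.92 FPKM (SD, n = 3 in either group, limma adjusted p = 0.000108), whereas SMAD2 (2.88 and 2.85 FPKM) and SMAD4 (9.50 and 9.45 FPKM) did not pass. The feedback genes PMEPA1 (2.56 to 10.7 FPKM), SKIL (3.69 to 6.52 FPKM) and SMAD7 (6.35 to 8.34 FPKM) rose, as did the bone morphogenetic protein SMAD gene SMAD5 (7.46 to 13.2 FPKM). DRAP1, whose product limits Nodal signalling in mouse, fell from 240 to 117 FPKM, and SMURF2, a ubiquitin ligase gene, from 16.8 to 12.9 FPKM. The 12 tested genes that activin or TGF-beta is known to induce held 10 rises, 1 fall and 1 that did not pass (median log2 difference 0.92). Beside this, 32.9% of all tested genes were higher and 36.1% lower. PMEPA1, SKIL and SMAD7 are counted in the SMAD list too, and COL1A1 also among the stromal markers. The 12 included NEDD9 (0.947 to 16.0 FPKM, past the filter only through OE-SOX3), COL1A1 (320 to 1835 FPKM), TGFBI (153 to 862 FPKM) and PMEPA1, and LTBP2 fell (17.8 to 10.5 FPKM). Such genes also respond to TGF-beta itself, and the share of each ligand was not tested.

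Transcription factors known to act on the inhibin subunit genes in granulosa cells were mostly low. Of 5 tested, GATA4 (0.349 to 1.09 FPKM) and FOXL2 rose, CREM, a cAMP-responsive factor gene that yields repressor isoforms, fell (3.37 to 1.67 FPKM), and NR5A1 and CREB1 did not pass (median 0.10). Among all tested genes 69.1% passed, 32.9% higher and 36.1% lower. GATA4 passed the filter only through its OE-SOX3 level, and the other 5 genes of the list were under 1 FPKM in both groups and not tested. Of these, WT1 (0.0187 and 0.673 FPKM), GATA6 (0.166 and 0.555 FPKM) and ZFPM2 (0.160 and 0.339 FPKM) were higher in OE-SOX3 without overlap. The groups of NR5A2 and ESR2 overlapped. Absence of overlap was common, at 76.0% of all tested genes, and its share among untested genes was not taken. Some markers of theca and stromal cells also differed between the groups. Of 8 listed, 4 were tested and all 4 (COL1A1, COL1A2, PDGFRA and DCN) rose, where 32.9% of all tested genes did. Summed over the list, the level went from 902 to 939 FPKM over OE-NC libraries to 3420 to 3650 FPKM over OE-SOX3 libraries. Nearly all of it was the collagen genes COL1A1 (320 and 1835 FPKM) and COL1A2 (567 and 1630 FPKM in OE-NC and OE-SOX3). Of the genes not tested, the theca enzyme gene CYP17A1 was at 0.150, 0 and 0.0303 FPKM in OE-NC (6 reads). It was at 0 in every OE-SOX3 library, so the groups overlapped. LHCGR (0.00706 and 0.0552 FPKM) and TCF21 (0.13 and 0.28 FPKM) were low too, but higher in OE-SOX3 without overlap (76.0% of all tested genes did not overlap, in either direction). The summed level of the leukocyte list went from 76.0 to 80.0 FPKM over OE-NC to 55.6 to 57.6 FPKM over OE-SOX3, nearly all of it CD68, and PTPRC was below 0.1 FPKM in each group's mean. The summed level of the endothelial list was 6.67 to 7.90 FPKM over OE-NC and 7.07 to 7.54 FPKM over OE-SOX3, although of its 3 tested genes TEK rose (1.66 to 2.27 FPKM) and PECAM1 fell (3.54 to 2.49 FPKM). The oocyte list summed to below 1 FPKM in every library. The epithelial list went from 107 to 141 FPKM over OE-NC to 40.0 to 46.1 FPKM over OE-SOX3, nearly all of it KRT7, and EPCAM was below 0.1 FPKM in each group's mean. The part of such cell states in the values of the 10 genes was not tested.

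**Figure D4:**
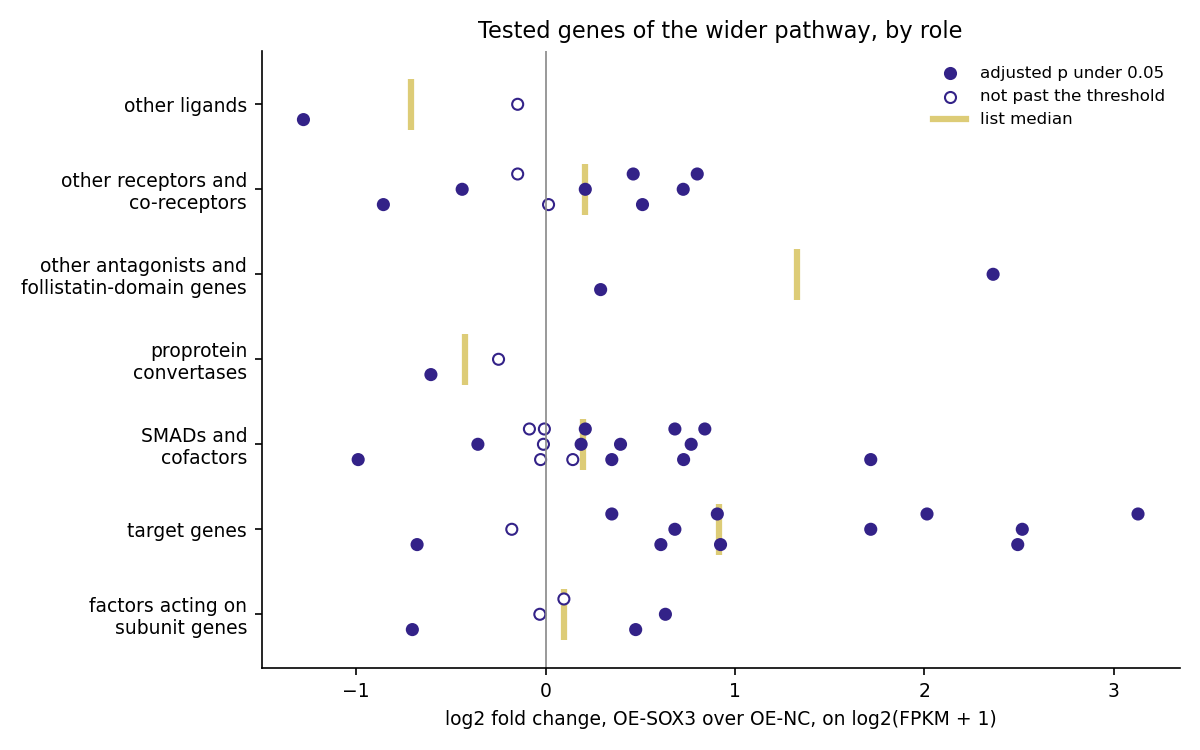
Log2 fold change of each tested gene in 7 lists of the wider pathway; filled points passed at an adjusted p under 0.05 and yellow bars are list medians. The target genes have the highest median of the lists with at least 5 tested genes (0.92), and INHBE at -1.28 is the lowest point.

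**Figure D5:**
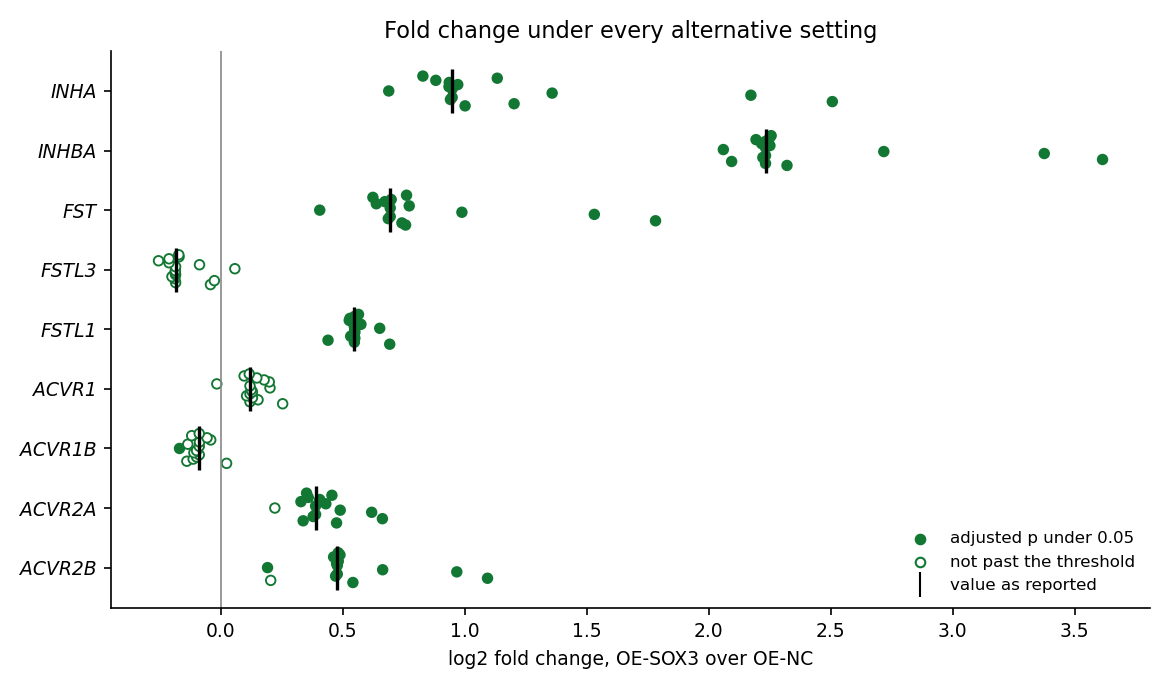
Log2 fold change of each tested gene under the alternative settings (points, filled where the adjusted p is under 0.05) and as reported (black tick). INHBA, INHA, FST and FSTL1 passed in each setting that tested them, INHBA between 2.06 and 3.61, while ACVR2A and ACVR2B each have 1 open point.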

How the data were processed

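The samples were 3 OE-NC and 3 OE-SOX3 libraries of KGN RNA. The authors deposited a table of 16626 genes with 1 value per library, taken as FPKM because the header names no unit and the values step with gene length. The submitters' processing notes list hg38, HISAT2, HTSeq and RSEM with no role or version. Annotation and strandedness were not stated in what was used here. Whole reads and a whole gene length fitted the values of 100% of 16278 genes above 0 (within 0.02 reads). Recovered reads give depth and exact binomial intervals (95%), which cover counting error only.

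Genes with a group mean of at least 1 FPKM were tested on log2(FPKM + 1) by limma-trend in R 4.3.3 (limma 3.58.1, no covariates), adjusted after Benjamini and Hochberg over all 11131 genes and a threshold of 0.05. Rose and fell refer to that threshold. Both the fit and the recovery of reads were tested on simulated data. The simulation of the fit changed only a small share of genes, where 69.1% passed in these data. It held no length trend and no outlying library, so it does not show how the fit performs with these. Python 3.11.15 and pandas 2.3.3 were also used. Within-library ratios were described without a test. Members and gene lists were chosen with earlier results of these data known. The text names the 10 members and SOX3, markers, and, from each list, mainly the called genes with the smallest adjusted p; list genes that did not pass or were not tested were named after their values were seen, as were SMAD7, SMAD9, DRAP1, SMURF2 and LTBP2. Same-numbered libraries deviated together from their group means (correlations 0.486, 0.243 and 0.25), so the numbers in the titles were taken as pairs in an alternative fit, but numbers 2 and 3 also correlated across numbers (0.227 and 0.282), so that only the pair numbered 1 stands out. Positions are from GENCODE 29 (GRCh38) and promoter sequences from RefSeq (GRCh38.p14), matched by symbol for 10 of 10 genes. The alternatives were 2 pseudocounts, 2 filters, 3 scalings, removal of length trends, limma-voom on recovered reads, the replicate block and leaving out each library.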

Additional observations from a re-analysis of the deposited data

How the results depend on the processing

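INHBA, INHA, FST and FSTL1 kept their direction and their call in each alternative that tested them. INHBA ranged from 2.06 (quantile normalization) to 3.61 (limma-voom on recovered reads), INHA from 0.69 to 2.51, FST from 0.40 to 1.78 and FSTL1 from 0.44 to 0.69, and the high values of the low genes came from smaller pseudocounts or recovered reads. ACVR2A lost its call under quantile normalization and ACVR2B under removal of length trends, as given above. ACVR1 changed sign without OE-NC replicate 1 (-0.017, against at most 0.198 without any other library), ACVR1B with equal sums of FPKM (0.023) and FSTL3 under quantile normalization (0.057), and none of these values passed. ACVR1B passed as lower under quantile normalization (-0.17, limma adjusted p = 0.0485, range 0.0485 to 0.843). Equal sums of FPKM moved the median of all tested genes from -0.03 to 0.10 and the share of higher among called genes from 47.7% to 57.8%. Under the other settings the cause of each change was not tested.

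The count of changed members was 6 in the alternatives except with a filter at 5 FPKM, which left 4 members to test and 2 called, and with length trends removed, which left 5. Under quantile normalization the 6 were not the same genes, with 5 higher and 1, ACVR1B, lower. Leaving out a library gave 6 members each time and 6557 to 9076 changed genes. The replicate block (8031 genes changed, against 7686) changed no call of a member. The ratios are differences of log2 values and were not recomputed with length trends removed. With a pseudocount of 0.5 the FST-to-FSTL3 difference went from 1.98 to 1.17 and the ACVR2A-to-ACVR2B difference from -0.43 to -0.17. Leaving out a library gave 0.68 to 1.25 for INHBA to INHA, 3.06 to 5.02 for INHBA to INHBB, 1.79 to 2.17 for FST to FSTL3, -0.56 to -0.34 for ACVR2A to ACVR2B and 0.16 to 0.33 for ACVR1 to ACVR1B. Few reads limit INHA, INHBB and FST in OE-NC.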
